A study of Rattus norvegicus with 12 samples.

Results

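The comparison described here is that of kidney isografts from brain dead donors with kidney isografts from living donors, both taken 1 h after transplantation. It uses 6 of the 12 arrays of the series, chosen by their titles: replicates 21, 23 and 27 of the grafts from brain dead donors and replicates 22, 24 and 25 of the grafts from living donors. Donors and recipients were inbred male Lewis rats, so that a graft met a genetically alike recipient; no ages were given. In brain dead donors the intracranial pressure was raised gradually until the brain stem herniated, and the animals were ventilated for 6 h. Both kinds of graft passed through 30 min of operative ischemia, were placed in the position of the left kidney, and went to recipients that lost their own right kidney. The other 6 arrays hold kidneys of brain dead donors that were not transplanted (0 h, 3 arrays) and normal kidneys (3 arrays), and serve below as the same contrast before transplantation. No ventilated donor without brain death is among the samples, so brain death and the 6 h of ventilation cannot be told apart.

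Brain death is known to set off a surge of catecholamines followed by loss of sympathetic tone and release of cytokines, and donor organs are inflamed before they are removed. In the kidney the first cells to meet these signals are those of the vessel wall: activated endothelium displays selectins and ICAM-1, which slow and hold leukocytes, and tubular cells secrete chemokines. Many of these genes are targets of the transcription factor NF-kB. Ischemia and reperfusion, to which every graft is exposed, call up a second set of genes for heat shock proteins, for repair of misfolded protein and for the disposal of heme and oxidants.

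Each array compared Cy3-labelled RNA of 1 kidney with Cy5-labelled RNA pooled from 3 normal kidneys, so every value below is a log2 ratio to normal kidney: 0 means the same as the pool and 1 means 2 times the pool. Such ratios do not give the level of a transcript and cannot show which cells were in the tissue, so ratios of different genes are not compared as levels. Whether the 3 kidneys of the pool are also the 3 normal kidney samples is not given, which bears on the contrast at 0 h and on the interaction below. In whole tissue, fewer cells of a type and less RNA per cell cannot be told apart. The spread of the ratios over the named genes was wider in the grafts of brain dead donors (SD of 0.434 to 0.5 log2 units per array) than in those of living donors (0.358 to 0.394). Quantile normalization, which gives all arrays the same distribution, is reported below as an alternative. How much of its effect comes from this difference in spread was not tested. Replicate 21 stood farthest from its group, with a mean correlation of 0.851. Nothing in the labels describes the animals behind each replicate beyond 1 graft per array; the p-values therefore reflect only how far these arrays vary.

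Of 9653 named genes, 706 passed the threshold (7.31%), an adjusted p under 0.05 in the limma fit over all 12 arrays. Of these, 241 were higher in the grafts of brain dead donors (2.5%) and 465 were lower (4.82%), so that 65.9% of the calls were lower. Over named genes and unnamed probes together, 1249 of 18478 features passed (6.76%). The changes were mostly small: the median log2 difference was 0.46 among the higher genes and -0.49 among the lower ones, and only 27 and 23 genes reached 2-fold. The higher genes had a median ratio of 0.56 in grafts of brain dead donors, against 0.15 in grafts of living donors. The lower genes had medians of -0.51 in grafts of brain dead donors and 0.01 in grafts of living donors. The 3 arrays of one group did not overlap the 3 of the other for 27.8% of all named genes. When each of the 6 arrays was left out in turn, 73 of the higher and 183 of the lower genes kept their call throughout, and after quantile normalization 47 and 116 kept it. Over all named genes, 88 to 154 were called higher and 213 to 376 lower with 1 of the 6 arrays left out, and 49 and 117 after quantile normalization. Counts of gene lists below are to be read against 2.5% higher and 4.82% lower and against these losses.

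The promoters of 4 genes that rose are shown first, with their values further on; they were picked because they hold matches to a motif and do not stand for the higher genes as a set. Cxcl1 encodes a neutrophil-attracting chemokine, and Mt1 and Mt3 encode metallothioneins, small proteins that bind zinc and copper. In Cxcl1 and Mt1 the motif is that of the factor known to control them. For Mt3 no such control is inferred from the matches. The sequences are the 250 bases upstream of the RefSeq start in the rat assembly GRCr8, written 5′ to 3′ on the strand of the gene. Capitals mark matches on either strand: to GGG and TTCC with any 3 bases between them (NF-kB-like) in Cxcl1 and Tlr2, and to TGCACNC or TGCGCNC (the core of the metal response element) in Mt1 and Mt3. Tlr2, a receptor for bacterial lipoproteins that signals to NF-kB, is shown as a weaker case with 1 match.
Cxcl1: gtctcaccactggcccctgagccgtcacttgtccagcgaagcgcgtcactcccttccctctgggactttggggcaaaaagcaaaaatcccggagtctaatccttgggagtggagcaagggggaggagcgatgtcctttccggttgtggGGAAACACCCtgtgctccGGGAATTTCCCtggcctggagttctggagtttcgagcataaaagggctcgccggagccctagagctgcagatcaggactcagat
Tlr2: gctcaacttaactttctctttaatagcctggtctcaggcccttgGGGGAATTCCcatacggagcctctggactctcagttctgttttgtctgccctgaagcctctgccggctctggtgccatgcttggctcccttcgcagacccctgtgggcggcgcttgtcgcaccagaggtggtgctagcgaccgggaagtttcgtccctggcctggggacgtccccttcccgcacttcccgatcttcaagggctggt
Mt1: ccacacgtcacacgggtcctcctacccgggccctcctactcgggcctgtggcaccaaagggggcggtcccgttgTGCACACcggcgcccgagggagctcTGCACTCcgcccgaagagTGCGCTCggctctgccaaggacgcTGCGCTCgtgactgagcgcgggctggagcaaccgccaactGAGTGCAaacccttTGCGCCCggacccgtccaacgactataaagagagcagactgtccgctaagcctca
Mt3: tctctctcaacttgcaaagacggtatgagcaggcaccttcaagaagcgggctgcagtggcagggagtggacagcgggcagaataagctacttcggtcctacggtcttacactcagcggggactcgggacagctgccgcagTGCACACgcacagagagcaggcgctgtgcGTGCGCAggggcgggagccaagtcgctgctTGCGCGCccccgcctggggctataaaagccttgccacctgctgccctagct
The windows lie at chr14:17479322-17479571 (Cxcl1), chr2:171504558-171504807 (Tlr2), chr19:10832976-10833225 (Mt1) and chr19:10856081-10856330 (Mt3), all on the minus strand. Cxcl1 holds 3 matches, of which the last 2 overlap, beginning 102, 84 and 83 bases before the start. Mt1 holds 6 matches between 176 and 55 bases before the start, and Mt3 holds 3 between 110 and 51. Of the promoters of genes that were higher at 1 h, 17 of 213 (7.98%) held an NF-kB-like match, against 14 of 428 (3.27%) for genes that were lower, 474 of 8374 (5.66%) for all measured named genes and 1516 of 33469 (4.53%) for the whole table. The metal response core is much more common and was about as frequent in the promoters of higher genes (32.9%) as in those of lower genes (32.5%) and of all measured genes (30.6%). Of the other motifs searched, TGACNNNGC, the core of the antioxidant response element, was in 24 of the 213 promoters of higher genes, 47 of the 428 of lower genes and 1025 of the 8374 of measured genes. TTCNNNGAA (STAT) was in 6.1% of higher, 6.07% of lower and 6.21% of measured genes. TGACTCA or TGAGTCA (AP-1) was in 4.23% of higher, 1.4% of lower and 3.58% of measured genes. The shares of higher genes thus lay near those of all measured genes for these 3 motifs. Within this window Sele, Icam1, Il1b and Sod2 held no match to the NF-kB-like letters searched. Those letters require GGG, so looser forms of the site were not counted. Nqo1 held no match to the antioxidant core, and Txnrd1 held 1, beginning 78 bases before the start, in only 1 of its windows. The promoters of Selp, Ccl2, Hmox1 and Birc3 were not analysed here. These counts describe letters in a window and say nothing of binding.

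The largest differences included genes of the activated vessel wall. Selp, which encodes P-selectin, stood at 2.91, 2.1 and 3.95 in the grafts of brain dead donors and at -1.15, -0.58 and -0.07 in those of living donors (log2 difference 3.59 ± 0.58 SE, adjusted p = 0.00841). Sele, which encodes E-selectin, stood at 4.68, 2.17 and 3.79 in grafts of brain dead donors, against 0.08, -0.14 and -0.03 in grafts of living donors (3.58 ± 0.67, adjusted p = 0.0138). In both genes the lowest of the brain dead donor grafts was replicate 23, still more than 2 log2 units above every living donor graft. Icam1, the ligand of leukocyte integrins, was tighter, with 1.97, 1.63 and 1.84 in grafts of brain dead donors and 0.78, 0.64 and 0.63 in those of living donors (1.13 ± 0.16, adjusted p = 0.00587). Unlike the selectins, Icam1 was also above the pool in every living donor graft. Vcam1, the adhesion molecule for monocytes and lymphocytes, had 2.35, 1.39 and 2.92 in grafts of brain dead donors and 0.27, 0.68 and 0.92 in grafts of living donors; the groups did not overlap, but the difference of 1.60 ± 0.46 missed the threshold (adjusted p = 0.0715). Of the 15 measured endothelial adhesion genes, 3 rose and 1 fell (3 to 4 and 0 to 1 with 1 array left out). The one that fell, Podxl, a sialomucin of podocytes and endothelium, had a difference of -0.61 ± 0.14 (adjusted p = 0.0346, up to 0.114 with 1 array left out). Selp, Sele and Icam1 kept their calls without each array, Sele only just (adjusted p up to 0.0498).

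Rnd1, a small GTPase that loosens the actin cytoskeleton and cell contacts, was among the steepest. It stood at 4.85, 3.42 and 4.48 in grafts of brain dead donors and 0.96, 1.45 and 0.51 in grafts of living donors (3.28 ± 0.50, adjusted p = 0.00676). Clec14a, a lectin of endothelial cells, was even across its replicates, with 1.83, 1.92 and 1.76 in grafts of brain dead donors against 0.75, 0.82 and 0.70 in grafts of living donors (1.08 ± 0.25, adjusted p = 0.0287, up to 0.0923 with 1 array left out). Apln, the vasoactive peptide apelin, was uneven: replicate 21 stood at 0.69 and replicates 23 and 27 at 1.66 and 1.83, while the living donor grafts stood at -0.19, -0.03 and 0.05 (1.45 ± 0.27, adjusted p = 0.0144, up to 0.0544 with 1 array left out). Its probes gave 1.13 and 1.78. Clec14a lost its call with any of the 6 arrays left out. After quantile normalization the calls of Clec14a (adjusted p = 0.22) and Apln (0.0726) were lost. Most genes of the endothelial cell list, which holds Clec14a but not Rnd1 or Apln, did not share these rises. Of the 35 measured genes of the endothelial cell list, 1 rose and 2 fell, 26 had a difference below 0, and their median was -0.11, beside 0.01 for all named genes. Among those that define the cell type, Cdh5 differed by 0.12 (adjusted p = 0.203), Kdr by -0.50 (0.122) and Tek by -0.68 (0.179).

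**Figure D1:**
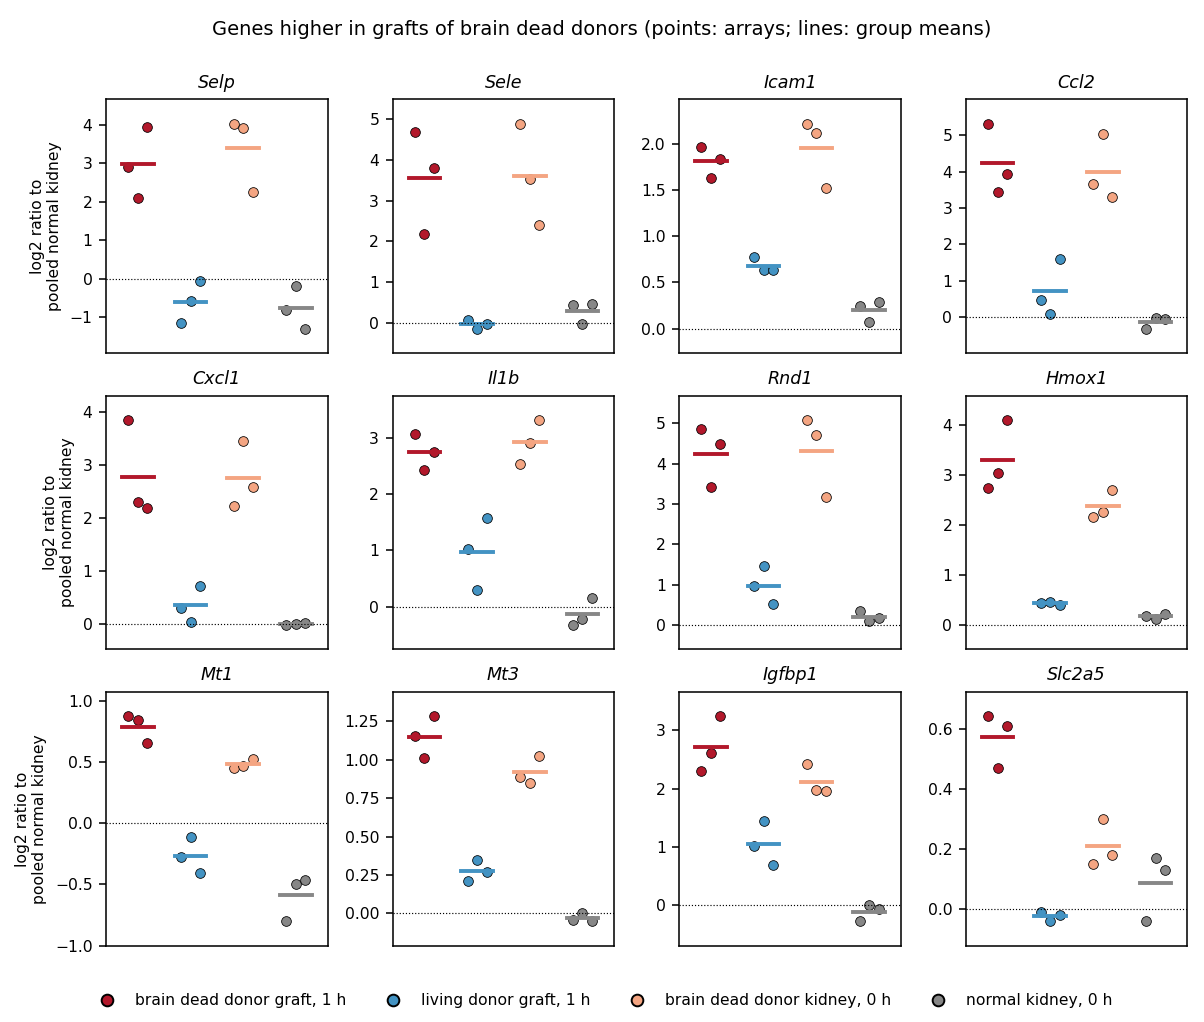
Log2 ratio to pooled normal kidney (y axis, with a scale of its own for each gene) on every array for 12 genes. These were higher at 1 h in grafts of brain dead donors than in grafts of living donors. Points are arrays and lines are means of 3. Each panel shows, from left to right, the grafts of brain dead donors, the grafts of living donors, the untransplanted kidneys of brain dead donors and the normal kidneys. The arrays of the 2 kinds of graft do not overlap in any panel, and Sele in living donor grafts lies between -0.14 and 0.08.

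Chemokines and cytokines that draw in neutrophils and monocytes formed the next group. Ccl2, the main attractant of monocytes, stood at 5.32, 3.45 and 3.95 in grafts of brain dead donors and 0.47, 0.08 and 1.60 in grafts of living donors (3.53 ± 0.57, adjusted p = 0.00866). Cxcl1, whose promoter is printed above, stood at 3.85, 2.31 and 2.19 in grafts of brain dead donors, against 0.30, 0.05 and 0.72 in grafts of living donors (2.43 ± 0.43, adjusted p = 0.0117). Both were highest in replicate 21, and both kept their calls without it. Ccl7, a close relative of Ccl2, differed by 0.58 ± 0.14 (adjusted p = 0.0412, up to 0.121 with 1 array left out), and these 3 were the only chemokines to rise among 27 measured, with none lower and a list median of 0.11 (2 to 4 higher with 1 array left out, 1 after quantile normalization). Cxcl2 was above the pool in living donor grafts too: it had 3.25, 2.15 and 2.55 in grafts of brain dead donors and 1.51, 0.41 and 1.57 in those of living donors (1.48 ± 0.41, adjusted p = 0.0619). Ccl20 had the opposite sign, with 0.41, 0.63 and 0.16 in grafts of brain dead donors and 1.99, 1.85 and 0.40 in grafts of living donors, and it did not pass (-1.01 ± 0.36, adjusted p = 0.14). After quantile normalization the call of Cxcl1 was lost (adjusted p = 0.104) and that of Ccl2 kept (0.0337).

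Il1b, the inflammasome cytokine, stood at 3.06, 2.42 and 2.75 in grafts of brain dead donors and 1.03, 0.30 and 1.58 in grafts of living donors (1.77 ± 0.31, adjusted p = 0.0118). Its probes gave 1.72 and 1.82, and its call held without each array but was lost after quantile normalization (adjusted p = 0.08). Il6, which drives the acute phase response, was led by 1 array, with 3.39, 1.00 and 1.89 in grafts of brain dead donors and -0.03, -0.14 and 0.38 in grafts of living donors, and the difference of 2.02 ± 0.58 did not pass (adjusted p = 0.069). Csf1, the growth factor of macrophages, rose by 0.59 ± 0.11 (adjusted p = 0.0141), though its probes gave 1.05 and 0.13 and the call was lost with either of 2 arrays left out (up to 0.0549) and after quantile normalization (0.055). Tnf did not differ detectably (0.10 ± 0.14, adjusted p = 0.749). Il33, an alarmin of endothelial and stromal nuclei, was lower: it had -0.58, -0.70 and -0.81 in grafts of brain dead donors and -0.39, -0.46 and -0.17 in grafts of living donors (-0.36 ± 0.08, adjusted p = 0.0341, lost with any of 4 arrays left out, and 0.34 after quantile normalization). The probes of Il33 gave -0.15 and -0.56. Among 25 measured cytokines and growth factors, 2 rose and 2 fell. With 1 array left out 1 to 3 rose and 0 to 1 fell, and none passed after quantile normalization.

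On the receiving side, 4 of 26 measured cytokine and TNF receptors rose and none fell; 1 to 3 rose with 1 array left out and 1 after quantile normalization. Il4r, the receptor chain for interleukin 4, stood at 2.06, 1.92 and 1.81 in grafts of brain dead donors and 0.95, 1.16 and 0.59 in grafts of living donors (1.03 ± 0.19, adjusted p = 0.0124). Tnfrsf1a, the main TNF receptor, had 1.23, 1.35 and 1.58 in grafts of brain dead donors and 0.47, 0.62 and 0.38 in grafts of living donors (0.90 ± 0.18, adjusted p = 0.0186). Both receptors were above the pool in every graft. Cd40, the co-stimulatory receptor, rose by 0.64 ± 0.13 with probes at 0.39 and 0.89, and Ltbr, the lymphotoxin beta receptor, by 0.33 ± 0.07. Of these 4 genes, Il4r alone kept its call without each of the 6 arrays, and it lost it after quantile normalization (adjusted p = 0.0512); the others reached adjusted p-values of 0.0679 (Tnfrsf1a), 0.0694 (Cd40) and 0.0701 (Ltbr).

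Of 28 measured genes of NF-kB signalling and its feedback, 4 rose and none fell, and 20 of the 28 differences were above 0. Birc3, an inhibitor of apoptosis induced by NF-kB, stood at 2.86, 2.27 and 3.07 in grafts of brain dead donors and 1.29, 1.44 and 0.67 in grafts of living donors (1.60 ± 0.40, adjusted p = 0.0416). Sod2, the mitochondrial superoxide dismutase and an NF-kB target, had 1.13, 0.70 and 1.55 in grafts of brain dead donors and -0.03, -0.03 and 0.17 in grafts of living donors (1.09 ± 0.20, adjusted p = 0.0127). In neither gene did the groups overlap. Tlr2 rested on 2 of the living donor grafts: these stood at 0.03 and 0.00, but replicate 25 at 1.00, close to the 1.08 of brain dead donor replicate 23 (1.05 ± 0.27, adjusted p = 0.0487). Ripk2, the kinase of the NOD receptors, rose by 0.64 ± 0.13. With 1 array left out 1 to 3 of the 28 genes rose (1 without replicate 21), after quantile normalization 2 did, and the adjusted p-values of Birc3, Tlr2 and Ripk2 reached 0.141, 0.151 and 0.0765 with 1 array left out. Litaf, a regulator of TNF transcription and of endosomes, differed little but evenly: 0.22, 0.41 and 0.48 in grafts of brain dead donors and -0.21, -0.23 and -0.40 in grafts of living donors (0.65 ± 0.08, adjusted p = 0.00405). In Litaf brain dead donor grafts lay above the pool and living donor grafts below it. Arid5a, which stabilises the Il6 transcript in mouse, had 1.72, 1.46 and 1.64 in grafts of brain dead donors and 0.30, 0.63 and 0.35 in those of living donors (1.18 ± 0.16, adjusted p = 0.00497), and Runx1, a transcription factor of blood cells and injured epithelium, rose by 1.10 ± 0.23 (adjusted p = 0.0225, up to 0.0766 with 1 array left out).

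A minority of the genes that handle heme, oxidants and metals rose. Hmox1, which encodes heme oxygenase 1, stood at 2.75, 3.04 and 4.10 in grafts of brain dead donors, while the living donor grafts lay together at 0.44, 0.46 and 0.40 (2.86 ± 0.28, 7.28-fold, adjusted p = 0.00161). Its probes gave 3.68 and 2.05. Nqo1, a quinone reductase, had 0.74, 1.06 and 1.04 in grafts of brain dead donors and 0.18, 0.07 and 0.31 in grafts of living donors (0.75 ± 0.12, adjusted p = 0.00728, and 0.0552 after quantile normalization). For Hmox1 replicate 27 was highest, and for Nqo1 replicate 21 was lowest of its group. Txnrd1, the thioredoxin reductase, rose by 0.39 ± 0.05 (adjusted p = 0.00497). Gstp1, a glutathione transferase, was at the pool in grafts of brain dead donors (0.07, 0.09 and 0.13) and below it in grafts of living donors (-0.41, -0.42 and -0.45), a difference of 0.52 ± 0.09 (adjusted p = 0.0124). Srxn1, which repairs oxidised peroxiredoxins, had 0.16 on all 3 arrays of brain dead donors and -0.13, -0.33 and -0.17 on those of living donors (0.37 ± 0.09, adjusted p = 0.0388); its call was lost with any of the 6 arrays left out (up to 0.122) and after quantile normalization (0.105). In all, 10 of 55 measured genes of the Nrf2 and oxidative stress list rose and none fell (6 to 8 higher with 1 array left out, 4 after quantile normalization), with a median over the 55 of 0.08. The rise was not general: Gclm, a subunit of the enzyme that makes glutathione precursor and a standard Nrf2 target, had a difference of -0.22 ± 0.17 (adjusted p = 0.519), and the cystine carrier Slc7a11 one of 0.08 ± 0.05 (0.385).

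Mt3 had the smallest p of all named genes. It stood at 1.15, 1.01 and 1.28 in grafts of brain dead donors and 0.21, 0.35 and 0.27 in grafts of living donors (0.87 ± 0.07, adjusted p = 0.00101). Mt1 had 0.87, 0.84 and 0.65 in grafts of brain dead donors and -0.28, -0.11 and -0.41 in grafts of living donors (1.05 ± 0.10, adjusted p = 0.00161). Metallothionein genes are near copies of each other, so their probes may share transcripts. Mt2A had 1.18, 1.00 and 0.38 in grafts of brain dead donors and 0.29, 0.27 and -0.28 in grafts of living donors, and did not pass (0.76 ± 0.25, adjusted p = 0.108). Mtf1, the factor that binds the metal response element, rose by 0.59 ± 0.12 (adjusted p = 0.0217), but its probes gave 1.17 and 0.01. With the zinc exporter Slc30a2 (0.66 ± 0.16), 4 of 21 measured genes of metal handling rose and none fell (2 to 3 with 1 array left out, 2 after quantile normalization). Mt1 and Mt3 kept their calls without each array and after quantile normalization; Mtf1 and Slc30a2 kept neither.

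Single genes of metabolism passed in both directions. Igfbp1, a secreted binder of insulin-like growth factors that insulin represses, stood at 2.31, 2.61 and 3.24 in grafts of brain dead donors and 1.02, 1.44 and 0.70 in grafts of living donors (1.67 ± 0.25, adjusted p = 0.00638). Fabp1, the liver-type fatty acid binding protein, had 1.05, 0.72 and 1.91 in grafts of brain dead donors and -0.82, -0.50 and -0.23 in grafts of living donors (1.75 ± 0.39, adjusted p = 0.0267, up to 0.0937 with 1 array left out). Plin2, which coats lipid droplets, had 1.52, 1.27 and 2.42 in grafts of brain dead donors and 0.57, 0.69 and 0.23 in grafts of living donors (1.24 ± 0.25, adjusted p = 0.0184, up to 0.0689). In Fabp1 and Plin2 replicate 27 stood highest. Cpt1a, the gate of mitochondrial fatty acid oxidation, rose by 0.61 ± 0.15, a call lost with any of the 6 arrays left out (adjusted p up to 0.116), whereas the droplet protein Plin3 (-0.50), the sterol regulator Insig2 (-0.72) and the mitochondrial carrier Ucp3 (-0.87, up to 0.0878) fell. The list of lipid genes had 5 higher and 3 lower of 58, but 0 to 3 higher and 2 to 3 lower with 1 array left out and none in either direction after quantile normalization.

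In the lists of sugar handling, 2 of 48 genes of hypoxia and glycolysis rose and 2 fell (4.17% each). Of 34 genes of gluconeogenesis and glycogen 1 rose and 1 fell (2.94% each). These shares lay near those of all named genes (2.5% higher and 4.82% lower). Single genes with small spread are described here. Slc2a5, the fructose transporter GLUT5, stood at 0.64, 0.47 and 0.61 in grafts of brain dead donors and at -0.01, -0.04 and -0.02 in grafts of living donors (0.60 ± 0.07, adjusted p = 0.00324). Gpd1, the glycerol phosphate dehydrogenase that links glycolysis to lipid synthesis, had 1.18, 1.10 and 1.20 in grafts of brain dead donors and 0.41, 0.35 and 0.41 in grafts of living donors (0.77 ± 0.09, adjusted p = 0.00324). Its probes gave 0.88 and 0.65. Slc7a5, the carrier of large neutral amino acids, rose by 0.75 ± 0.13 (0.18 after quantile normalization) and the glutamine carrier Slc1a5 by 0.65 (up to 0.0509 with 1 array left out). In Slc2a5 and Gpd1 the living donor grafts were almost level with each other. Stbd1, which binds glycogen, fell by 1.14 on the log2 scale (adjusted p = 0.0144, lost without 1 array at 0.058 and after quantile normalization at 0.0959), and the glycolytic enzyme Pfkm fell by 0.48 (0.00497, and 0.0579 after quantile normalization). Over all 229 measured solute carriers, 5 rose (2.18%) and 9 fell (3.93%), below the shares over all named genes. Among those that fell, Slc15a2, the peptide transporter of the late proximal tubule, had -1.47, -1.42 and -1.64 in grafts of brain dead donors and -0.59, -0.62 and -0.51 in grafts of living donors (-0.94 ± 0.14, adjusted p = 0.00703, and 0.112 after quantile normalization).

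Genes that make and handle RNA and protein passed in both directions too. Apex1, an endonuclease of base excision repair, had 0.37, 0.35 and 0.34 in grafts of brain dead donors and -0.14, -0.19 and -0.16 in grafts of living donors (0.52 ± 0.07, adjusted p = 0.00405). Tsr1, needed to build the small ribosomal subunit, had 0.82, 0.96 and 0.81 in grafts of brain dead donors against 0.29, 0.33 and 0.23 in grafts of living donors (0.58 ± 0.08, adjusted p = 0.00491). In both genes the arrays of a group lay close together and the groups far apart. Hnrnpa1, a splicing repressor, had 1.11, 1.34 and 1.11 in grafts of brain dead donors and 0.35, 0.37 and 0.59 in grafts of living donors (0.75 ± 0.10, adjusted p = 0.00497). Both Tsr1 (0.08) and Hnrnpa1 (0.09) lost their calls after quantile normalization. By list, 6 of 74 tRNA synthetases and translation factors rose (8.11%, beside 2.5% of all named genes) and 1 fell, but 2 to 3 rose with 1 array left out and 1 after quantile normalization. Of 40 proteasome subunits 4 rose and none fell, with 1 to 3 rising with 1 array left out and none after quantile normalization. Of 63 splicing factors 4 rose (6.35%) and 7 fell (11.1%, beside 4.82%), with 2 to 3 and 3 to 7 with 1 array left out and none after quantile normalization. None of the 50 cytosolic ribosomal proteins passed in either direction. Among 49 kinases of the MAPK pathways and their partners, 6 rose (12.2%) and 1 fell, none of the risers by more than 0.68; with 1 array left out 0 to 2 rose, and after quantile normalization none did.

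**Figure D2:**
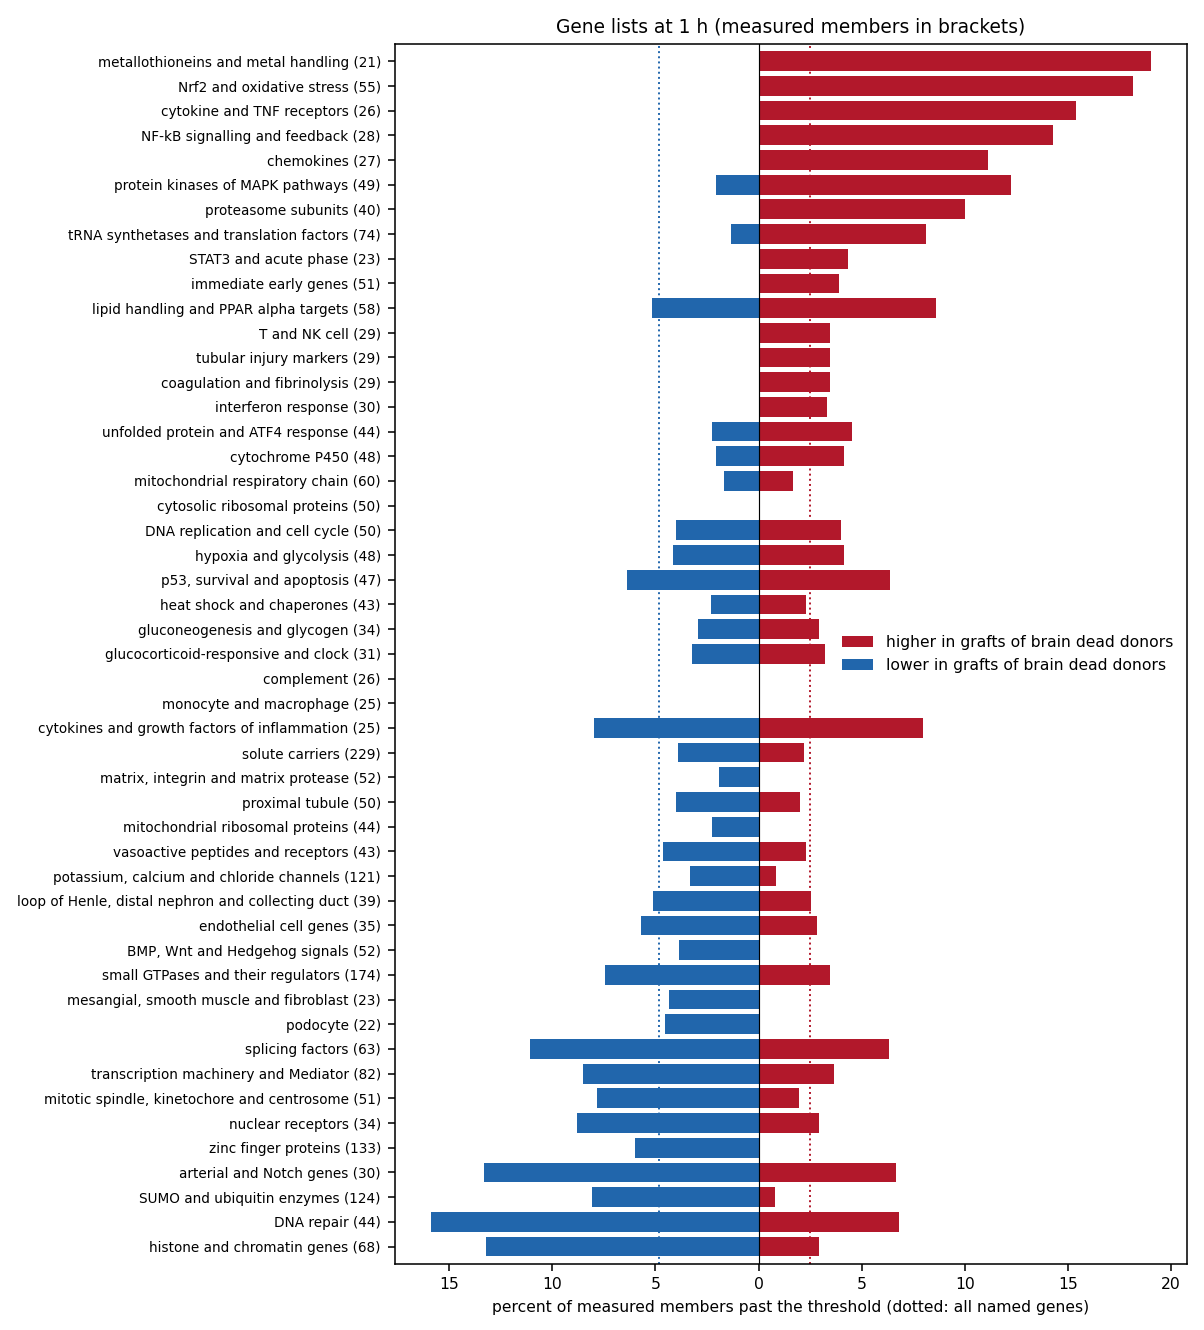
Percent of the measured members of each gene list (y axis, number of measured members in brackets; lists of 20 or more) that passed the threshold at 1 h (x axis), higher in grafts of brain dead donors to the right and lower to the left. Dotted lines mark all 9653 named genes, 2.5% higher and 4.82% lower. Metallothioneins and metal handling (4 of 21) and Nrf2 and oxidative stress (10 of 55) reach farthest to the right.

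Lower genes outnumbered higher ones, and the steepest again included genes of the vessel wall. Tmem204, an endothelial membrane protein of cell contacts, stood at -2.11, -2.01 and -2.47 in grafts of brain dead donors and at -0.05, 0.03 and 0.19 in grafts of living donors (-2.25 ± 0.23, adjusted p = 0.00163). Gja5, the gap junction protein connexin 40 of arterial endothelium and renin cells, had -1.79, -1.15 and -1.62 in grafts of brain dead donors and -0.18, -0.37 and 0.05 in grafts of living donors (-1.36 ± 0.20, adjusted p = 0.00655). Both genes were near the pool in living donor grafts. Acvrl1, an endothelial receptor for BMP9, was lower by less, with -0.48, -0.33 and -0.62 in grafts of brain dead donors and 0.15, 0.21 and 0.09 in grafts of living donors (-0.62 ± 0.09, adjusted p = 0.00559). Jag1, a Notch ligand, fell by 0.75 and the Notch-modifying enzyme Mfng by 0.73, both losing their calls with 1 array left out (adjusted p up to 0.0964 and 0.144). Against these, the Notch-regulated Nrarp (0.53) and the endothelial factor Sox7 (0.65) rose, but each lost its call with any of 5 arrays left out (adjusted p up to 0.0655 and 0.122) and after quantile normalization (0.0964 and 0.0648). The arterial and Notch list held 2 higher and 4 lower of 30, with 0 to 1 higher and 2 to 4 lower with 1 array left out, and none higher and 2 lower after quantile normalization. Abi3, an adaptor of the actin machinery, rested on 1 array for its size: it had -4.12, -1.70 and -1.75 in grafts of brain dead donors and -0.63, -0.69 and 0.34 in grafts of living donors, and its difference of -2.19 ± 0.57 (adjusted p = 0.0482) was -1.40 without replicate 21. Its call held without that array (0.0361) but was lost with any of 4 others left out (up to 0.157) and after quantile normalization (0.0552).

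Higd1b, a gene of pericytes, had the opposite layout: it was at the pool in grafts of brain dead donors (-0.03, 0.07 and -0.18) and above it in grafts of living donors (0.78, 1.08 and 1.08; -1.03 ± 0.15, adjusted p = 0.00655). Npr1, the receptor of atrial natriuretic peptide, differed by only -0.42 ± 0.05, but its arrays lay close together, with -0.30, -0.28 and -0.45 in grafts of brain dead donors and 0.08, 0.06 and 0.09 in grafts of living donors (adjusted p = 0.0031). Nr0b2, which encodes the repressor SHP of bile acid and lipid metabolism, had -0.59, -0.54 and -1.22 in grafts of brain dead donors and 0.68, 0.72 and 0.68 in grafts of living donors (-1.48 ± 0.28, adjusted p = 0.0156, up to 0.0533 with 1 array left out). Nr0b2 also lost its call after quantile normalization (adjusted p = 0.055). In Higd1b and Nr0b2 living donor grafts lay above the pool and brain dead donor grafts at or below it. In Npr1 living donor grafts were close to the pool and brain dead donor grafts below it. Nr3c2, the mineralocorticoid receptor of the distal nephron, was below the pool in both, with -0.71, -0.83 and -0.89 in grafts of brain dead donors and -0.26, -0.34 and -0.28 in grafts of living donors (-0.51 ± 0.10, adjusted p = 0.0135). Sostdc1, a BMP and Wnt antagonist of the distal tubule, likewise had -1.63, -1.41 and -1.61 in grafts of brain dead donors against -0.54, -0.81 and -0.38 in grafts of living donors (-0.97 ± 0.16, adjusted p = 0.00866).

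**Figure D3:**
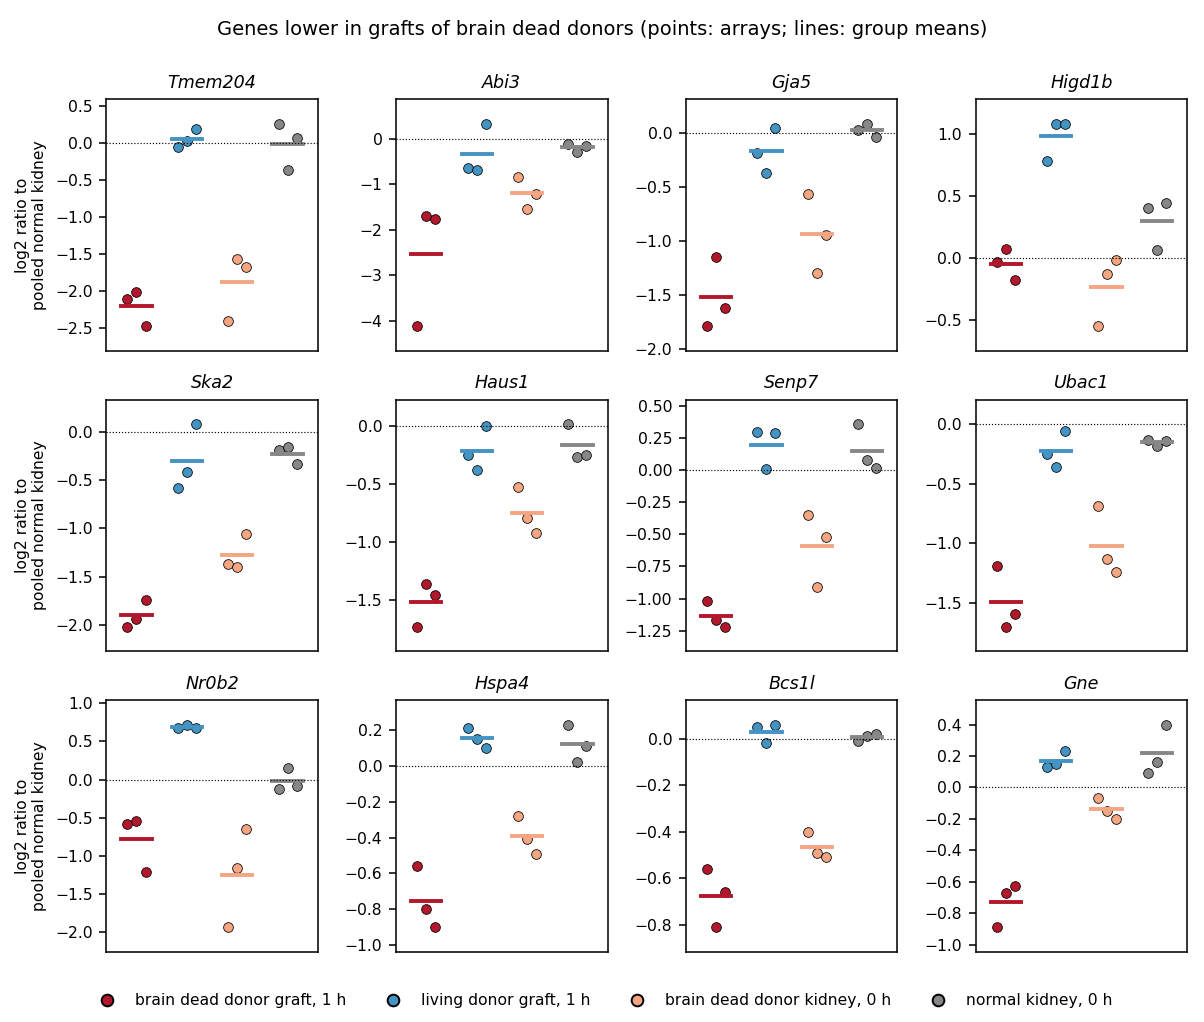
Log2 ratio to pooled normal kidney (y axis, with a scale of its own for each gene) on every array for 12 genes. These were lower at 1 h in grafts of brain dead donors than in grafts of living donors. Points are arrays, lines are means of 3, and groups are ordered as in the panels of the higher genes. In Abi3 the single value of -4.12 belongs to replicate 21.

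Of 51 genes of the mitotic spindle, kinetochore and centrosome, 4 fell (7.84%, beside 4.82% of all named genes) and 1 rose; 3 to 5 fell with 1 array left out and 4 after quantile normalization. Ska2, of the complex that holds chromosomes to microtubules, stood at -2.02, -1.94 and -1.74 in grafts of brain dead donors and -0.58, -0.42 and 0.08 in grafts of living donors (-1.59 ± 0.16, adjusted p = 0.00161). Haus1, of the augmin complex that branches microtubules, had -1.73, -1.36 and -1.46 in grafts of brain dead donors and -0.25, -0.38 and 0.00 in grafts of living donors (-1.31 ± 0.14, adjusted p = 0.0021). The others were Numa1 (-0.71) and Tubg1 (-0.33, adjusted p up to 0.0766 with 1 array left out), both lower, and Zwint (0.44), which was higher. Enzymes that attach or remove ubiquitin and SUMO included 10 lower (8.06%) and 1 higher of 124, with 4 to 10 lower with 1 array left out and 5 after quantile normalization. Senp7, a protease that trims SUMO chains, had -1.02, -1.17 and -1.22 in grafts of brain dead donors and 0.30, 0.01 and 0.29 in grafts of living donors (-1.34 ± 0.15, adjusted p = 0.00211), with probes at -1.44 and -1.24. Ubac1, of the ubiquitin ligase complex KPC, had -1.19, -1.70 and -1.59 in grafts of brain dead donors and -0.25, -0.36 and -0.06 in grafts of living donors (-1.27 ± 0.16, adjusted p = 0.00405). The deubiquitinases Usp40 (-0.75) and Usp54 (-0.79) also fell. Of the genes in this paragraph with values for each array, all kept their calls without each of the 6 arrays and after quantile normalization.

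Bcs1l, which assembles respiratory complex III, had the smallest p among the lower genes, with -0.56, -0.81 and -0.66 in grafts of brain dead donors and 0.05, -0.02 and 0.06 in grafts of living donors (-0.71 ± 0.06, adjusted p = 0.00118). Coa4, an assembly factor of cytochrome oxidase, had -1.33, -1.15 and -0.91 in grafts of brain dead donors and -0.12, -0.11 and 0.18 in grafts of living donors (-1.12 ± 0.14, adjusted p = 0.00423). Both genes were below the pool on every brain dead donor array. They do not stand for mitochondrial genes in general: of 60 genes of the respiratory chain list 1 rose and 1 fell, and of 44 mitochondrial ribosomal proteins 1 fell. In DNA repair 7 of 44 fell (15.9%; 4 to 5 with 1 array left out, 2 after quantile normalization), among them Rad50 of the break-sensing complex (-0.72) and the oxidised guanine glycosylase Ogg1 (-0.66), and 3 rose, Apex1 among them. Rad50 (0.0723) and Ogg1 (0.0503) lost their calls after quantile normalization. Of 68 histone and chromatin genes 9 fell (13.2%) and 2 rose; 3 to 6 fell and 1 to 2 rose with 1 array left out, and 2 fell after quantile normalization. Mllt3, a reader of acylated histones, had -0.86, -0.55 and -0.84 in grafts of brain dead donors and 0.13, 0.04 and 0.00 in grafts of living donors (-0.81 ± 0.11, adjusted p = 0.00497). Its relative Mllt10 passed at -1.07, but its probes gave 0.20 and -2.33. Of 133 zinc finger genes 8 fell (6.02%, near the 4.82% of all named genes) and none rose; with 1 array left out 4 to 7 fell and 0 to 1 rose, and 3 fell after quantile normalization. The last genes described here had small spread in both groups. Gne, the first enzyme of sialic acid synthesis, had -0.89, -0.67 and -0.63 in grafts of brain dead donors and 0.13, 0.15 and 0.23 in grafts of living donors (-0.90 ± 0.09, adjusted p = 0.00163). Hspa4, a partner of the HSP70 chaperones, had -0.56, -0.80 and -0.90 in grafts of brain dead donors and 0.21, 0.15 and 0.10 in grafts of living donors (-0.91 ± 0.09, adjusted p = 0.00163).

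A few stress and signalling genes lay above the pool in both kinds of graft and higher in those of living donors. Rgs1, a brake on chemokine receptor signalling in leukocytes, stood at 0.49, 0.94 and 0.45 in grafts of brain dead donors and at 1.47, 1.42 and 2.38 in grafts of living donors (-1.13 ± 0.23, adjusted p = 0.019, up to 0.0627 with 1 array left out). Its call was also lost after quantile normalization (adjusted p = 0.0868). In the kidneys at 0 h Rgs1 lay between -0.27 and -0.07 in all 6. Ddit3, the stress factor CHOP, had 0.59, 0.58 and 0.75 in grafts of brain dead donors and 1.34, 1.30 and 1.01 in grafts of living donors (-0.57 ± 0.10, adjusted p = 0.0111). Hspa1a, the inducible HSP70, had 2.22, 2.62 and 2.38 in grafts of brain dead donors and 3.85, 3.32 and 2.85 in grafts of living donors; the groups did not overlap, yet the difference of -0.93 ± 0.26 did not pass (adjusted p = 0.0652). All 3 were above the pool on all 6 graft arrays.

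The same contrast before transplantation is that of brain dead donor kidneys minus normal kidneys at 0 h. It shares no array with the contrast at 1 h, though all arrays share the reference pool. Both contrasts also come from the same limma fit, which uses the same variance of a gene at both times. The standard error of Selp, for example, was 0.58 at 0 h and at 1 h. Calls at 0 h and at 1 h are therefore not independent. How much of their overlap comes from the shared variance was not tested. At 0 h 505 named genes passed (5.23%), 265 higher (2.75%) and 240 lower (2.49%), and 860 of all features did (4.65%). Of these, 293 passed at 1 h as well, all in the same direction, which is 41.5% of the calls at 1 h and 58% of those at 0 h. Among the 706 genes called at 1 h, 685 had the same sign at 0 h, against 69.2% of all named genes. Genes that were higher at 1 h had a median difference of 0.46 at 1 h and 0.40 at 0 h. Those that were lower had medians of -0.49 at 1 h and -0.32 at 0 h. The share of lower genes among the calls was 65.9% at 1 h and 47.5% at 0 h.

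**Figure D4:**
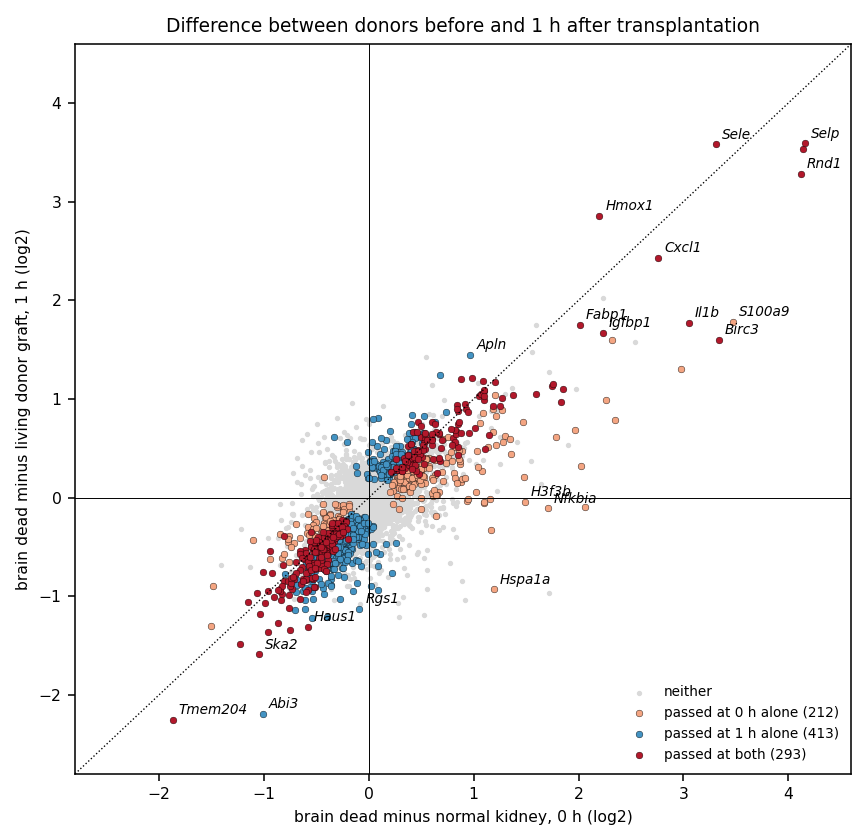
Each point is 1 of 9653 named genes; the x axis gives the log2 difference of brain dead donor kidneys minus normal kidneys at 0 h and the y axis that of brain dead minus living donor grafts at 1 h. The dotted line marks equal differences. All 293 genes that passed at both times lie at the lower left or the upper right of the origin, and H3f3b, Nfkbia and Hspa1a lie far to the right of the line.

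Whether the donor difference itself changed with transplantation was asked by the interaction of donor and time. No gene passed in the limma fit, and 455 named genes (4.71%) had an unadjusted p under 0.05. Of the 8 genes with the smallest p, 6 were higher in brain dead donor kidneys at 0 h and did not pass at 1 h, when all 6 graft arrays lay above the pool. H3f3b, which encodes the replacement histone H3.3, had 1.72, 1.45 and 1.74 in grafts of brain dead donors and 1.71, 1.44 and 1.88 in grafts of living donors; at 0 h it had 1.42, 1.51 and 1.37 in kidneys of brain dead donors and -0.08, 0.05 and -0.15 in normal kidneys (interaction -1.53 ± 0.17, adjusted p = 0.0648). Nfkbia, the NF-kB inhibitor IkB alpha, had 2.92, 2.53 and 2.43 in grafts of brain dead donors and 3.18, 2.42 and 2.60 in grafts of living donors, while at 0 h it had 1.89, 2.36 and 1.83 in kidneys of brain dead donors and 0.33, 0.27 and 0.35 in normal kidneys (-1.82 ± 0.29, adjusted p = 0.473). For the phosphatase subunit Ppp1r15a, which ends the translational arrest of stress, the difference was -0.33 ± 0.18 at 1 h and 1.17 ± 0.18 at 0 h, and for Hspa1a it was -0.93 at 1 h and 1.19 at 0 h. Herpud1, of protein degradation at the endoplasmic reticulum, and Atf4, the central factor of the integrated stress response, had 0.03 and 0.19 at 1 h against 0.65 and 0.89 at 0 h. Among these 6 genes living donor grafts were above normal kidneys in each, by 0.79 (Herpud1) to 3.25 (Hspa1a), all past the threshold. Fndc3a (-0.63) and Rhobtb3 (0.77, with probes at 1 h of 0.96 and 0.17) completed the 8 smallest p-values, both at an adjusted p of 0.473.

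**Figure D5:**
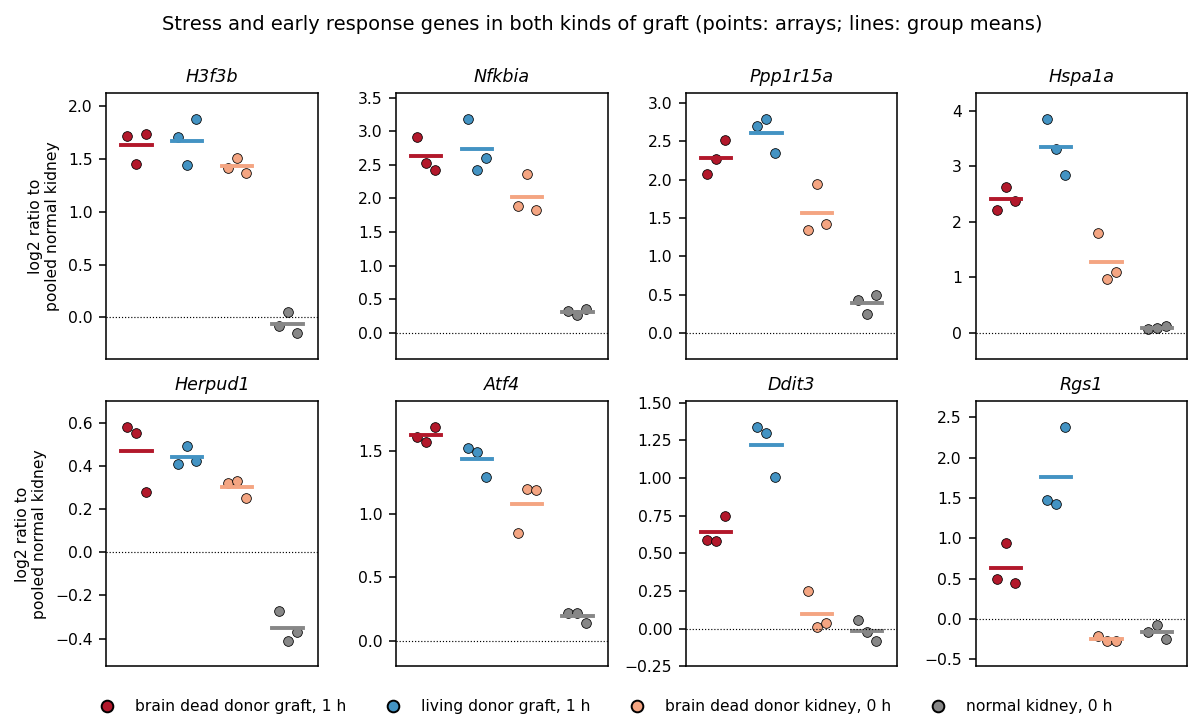
Log2 ratio to pooled normal kidney (y axis, with a scale of its own for each gene) on every array for 8 stress and early response genes, with the groups in the same order as in the other panels of single genes. H3f3b lies between 1.44 and 1.88 in both kinds of graft, and Rgs1 and Ddit3 are highest in grafts of living donors.

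Of 51 immediate early genes, 2 rose at 1 h with a median of 0.02, and at 0 h 7 rose with a median of 0.35. Those at 1 h were Btg3, with probes at 0.41 and 0.49, and Spred1, with probes at 0.77 and -0.04; both lost their calls with any of the 6 graft arrays left out (adjusted p up to 0.107 and 0.115), so that no gene of the list rose with any of them left out. Of 44 genes of the unfolded protein and ATF4 response, 2 rose and 1 fell at 1 h, and 9 rose at 0 h. The difference between the counts at the 2 times was not tested. In Hmox1, Mt1 and Mt3 the donors differed by 2.86, 1.05 and 0.87 at 1 h and by 2.2, 1.07 and 0.95 at 0 h. The donor difference of Selp was 3.59 at 1 h and 4.16 at 0 h, that of Sele 3.58 at 1 h and 3.31 at 0 h, and that of Ccl2 3.53 at 1 h and 4.14 at 0 h. For Birc3 it was 1.60 at 1 h and 3.34 at 0 h, with living donor grafts between 0.67 and 1.44, and for Il1b 1.77 at 1 h and 3.05 at 0 h; the interaction did not pass for either (adjusted p = 0.875 and 0.881). Slc2a5, Gstp1 and Srxn1 passed at 1 h and had 0.12, 0.08 and 0.05 at 0 h, also without passing the interaction test (adjusted p = 0.526, 0.806 and 0.925).

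Markers of leukocytes gave few calls, but lists this short would hold few at the shares of all named genes (2.5% higher and 4.82% lower). The lack of calls is therefore not read as a result about these cells. None of 19 neutrophil genes (1 without replicate 21) and none of 25 monocyte and macrophage genes passed, with medians of 0.08 and 0.04 beside 0.01 for all named genes. The median ratio of the neutrophil list per array was 0.06 to 0.10 in grafts of brain dead donors and -0.14 to 0.01 in grafts of living donors, and that of the monocyte list was 0.06 to 0.18 in grafts of brain dead donors and -0.05 to 0.15 in grafts of living donors. S100a9, the calgranulin of neutrophils, had 1.22, 1.98 and 3.16 in grafts of brain dead donors and 0.00, 0.71 and 0.30 in grafts of living donors (1.78 ± 0.50, adjusted p = 0.0652), and Lcn2, which neutrophils share with injured tubules, had 1.25, 1.24 and 2.37 in grafts of brain dead donors and -0.15, -0.24 and -0.01 in those of living donors (1.75 ± 0.50, adjusted p = 0.0705). Both sets of arrays were apart, but the spread among the brain dead donor grafts was wide. The leukocyte gene Ptprc differed by -0.04 (adjusted p = 0.964) and Cd68 by 0.05 (0.861). Of 29 T and NK cell genes Cd3d rose by 0.21 (adjusted p = 0.0352, lost after quantile normalization at 0.0947), and none of 11 B cell and 12 red cell and platelet genes passed. What part these cells have in the inflammatory genes above was not tested.

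Lists of nephron genes had shares of calls near those of all named genes (2.5% higher and 4.82% lower). Of 50 proximal tubule genes 1 rose (2%) and 2 fell (4%). Of 39 genes of the loop of Henle, distal nephron and collecting duct 1 rose (2.56%) and 2 fell (5.13%). Of 22 podocyte genes none rose and 1 fell (4.55%). In this order the list medians were 0.03, -0.05 and 0.03. The proximal tubule gene that rose was Cyp24a1, which inactivates vitamin D (0.59, adjusted p = 0.0127, and 0.0788 after quantile normalization), and those that fell were Slc15a2 and Hao2 (-0.41, adjusted p = 0.0341, lost after quantile normalization at 0.488). Of 29 tubular injury markers 1 rose (3.45%, again near the share of all named genes) and none fell. This was Areg, an EGF receptor ligand (0.58, adjusted p = 0.0396), which lost its call with any of 4 arrays left out (up to 0.13).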

How the data were processed

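Per the design text of the labels, Agilent Feature Extraction served the authors to read the spots and GeneSpring to normalize the arrays (per spot, per chip, lowess), and the ratio was Cy3 to Cy5. The deposited table holds 21575 probes; its values were read as log10 ratios, since they end exactly at 2 on either side and array medians lie near 0. Multiplied by 3.322 they gave log2 ratios, with no further normalization. Probes sharing 1 symbol were averaged into 9653 named genes (2266 with several probes), and 8825 unnamed probes stayed single. Groups came from the sample titles, since every sample carries 1 identical description, which matches the titles of the brain dead donor grafts and contradicts all others. A limma fit (version 3.58.1, R version 4.3.3) over all 12 arrays gave the differences between group means. Adjustment followed Benjamini and Hochberg over all 18478 features, and every adjusted p in the text comes from this fit or a named alternative. The fit was also run on simulated data with the same spread in all groups and shifts of 1 or 2 log2 units. Most called differences here were smaller, so that run is no check of them. No intensities were used, so dim and saturated spots could not be weighed, and the number of arrays limits the precision. The deposited log10 ratios carry no scan date or slide, so no batch was tested.

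The genes named come from the 25 largest changes and the 10 smallest p-values in each direction, from members of the gene lists and from the 8 smallest interaction p-values; a selection is described. The genes, lists and tests were chosen with earlier results of these data known, and the metal response motif was added after the values were seen. Promoters were matched by symbol in the RefSeq promoter table of GRCr8.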

Additional observations from a re-analysis of the deposited data

How the results depend on the processing

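Over all 18478 features, 1249 passed at 1 h. This count was 427 with the 2 groups alone, 298 after quantile normalization and, with named genes only, which leaves fewer features to test, 813, against 706 named genes in the fit over all features; the cause of the others was not tested. Leaving out each of the 12 arrays gave 557 to 1526. At 0 h 860 passed, with 350 for the 2 groups alone, 1120 after quantile normalization and 2852 with array weights, and 165 to 1186 with 1 array left out. The interaction, with none past the threshold, gave 3 with array weights, 1 with named genes only and 0 to 4 with 1 array left out. Brain dead and living donor grafts share no replicate number. At 0 h, where brain dead donor and normal kidneys share the numbers 1 to 3, a fit with the replicate number as a block gave 2 calls; deviations of same-numbered arrays correlated at 0.124, -0.01 and -0.153, so the numbers are not taken to pair the kidneys. For 248 called genes of the rule and the lists, the alternatives were checked gene by gene, except single probes and fits without a 0 h array. In those checked none changed sign, 49 kept their call in all, and 109 kept it without each of the 6 graft arrays. Where the groups did not overlap, leaving out 1 array could not change the sign. Single probes of a gene could differ in sign, as in Mllt10 (0.20 and -2.33). Calls were lost by 174 genes after quantile normalization, by 152 with the 2 groups alone, and by 86, 65, 118, 112, 89 and 122 without replicate 21, 23, 27, 22, 24 and 25. The arrays, 3 per group, limit what small differences can be shown.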

Other observations

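Of the 8825 probes without a symbol, 543 passed at 1 h (6.15%), close to the 7.31% of named genes, and are not described by name.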
